A study of Mus musculus with 6 samples.

Results

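White and brown adipocyte genes were followed in RNA-seq libraries from 6 mice with lung cancer. The set holds the rows of the deposited tables for 10 named genes out of 18238: the adipokine genes Adipoq, Retn and Cfd, the lipid droplet genes Plin1, Plin4, Cidec and Cidea, the fatty acid and glycerol handling genes Fabp4 and Aqp7, and the thermogenic gene Ucp1. All 10 were found. Of these, 8 are expressed by fat cells in general and 2, Ucp1 and Cidea, are typical of brown fat. The artemisinin group was 3 mice labelled lung cancer and artemisinin treatment (artemisinin replicates 1 to 3), and the model group was 3 mice labelled lung cancer and model (model replicates 1 to 3), so all 6 carried the disease. Artemisinin is a plant sesquiterpene lactone used against malaria. The way the tumours were produced, the strain, age and sex of the mice, the dose and duration of treatment and the tissue taken are not stated in the sources used here, nor whether fat around the organ was trimmed off. The labels number the mice within a group, and nothing more says how the samples were taken, so p-values measure the spread between these 6 samples.

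White adipocytes store triglyceride in 1 large droplet and secrete adipokines, and brown adipocytes hold many small droplets and burn fatty acids to make heat. Perilipins and the CIDE proteins coat the droplet and control its size and breakdown. In brown fat UCP1 lets protons leak across the inner mitochondrial membrane, which turns the oxidation of fatty acids into heat. In the chest of the mouse, brown fat lies around the aorta and in the mediastinum, close to the lung and heart.

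The promoter windows below are shown for the 2 members that passed the test between the groups (Plin4 and Aqp7), for the main adipokine gene (Adipoq) and for the brown fat gene whose counts lay almost wholly in 1 library (Ucp1). They come from RefSeq (GRCm38.p6), which had windows for 8 of the 10 members. Each is the 250 bases before a transcription start, 5′ to 3′ on the gene's strand, with capitals marking any match, on either strand, to TATAAA (the TATA box), to CCAAT (the CCAAT box), to AGGTCA (the core hexamer of nuclear receptor sites), the DR1 element (a direct repeat of that hexamer with a spacer of 1 base, so each DR1 match also holds hexamer matches) or to TTNNGNAA (a loose form of the C/EBP site).
Adipoq (chr16:23146286-23146535, + strand): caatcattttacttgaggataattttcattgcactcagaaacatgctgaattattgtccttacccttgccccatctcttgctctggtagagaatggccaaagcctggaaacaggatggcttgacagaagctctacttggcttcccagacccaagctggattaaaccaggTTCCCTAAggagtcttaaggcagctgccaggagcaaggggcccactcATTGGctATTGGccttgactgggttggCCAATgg
Plin4 (chr17:56109783-56110032, - strand): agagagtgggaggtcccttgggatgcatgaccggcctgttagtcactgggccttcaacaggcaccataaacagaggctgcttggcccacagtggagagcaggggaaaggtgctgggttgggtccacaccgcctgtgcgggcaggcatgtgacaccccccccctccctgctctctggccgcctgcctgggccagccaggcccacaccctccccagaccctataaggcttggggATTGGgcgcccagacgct
Aqp7 (chr4:41048137-41048386, - strand): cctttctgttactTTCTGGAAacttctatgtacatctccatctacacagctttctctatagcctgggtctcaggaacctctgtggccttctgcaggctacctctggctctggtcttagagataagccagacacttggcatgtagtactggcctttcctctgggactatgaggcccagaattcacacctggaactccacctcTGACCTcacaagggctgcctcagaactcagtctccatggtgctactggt
Ucp1 (chr8:83290098-83290347, + strand): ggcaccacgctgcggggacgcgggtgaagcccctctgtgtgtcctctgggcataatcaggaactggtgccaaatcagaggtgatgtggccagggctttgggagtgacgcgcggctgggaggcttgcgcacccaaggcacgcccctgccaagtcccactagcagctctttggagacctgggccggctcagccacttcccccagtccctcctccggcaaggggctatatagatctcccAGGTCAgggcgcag
Adipoq held 3 CCAAT matches, beginning 34, 27 and 7 bases before the start, and 1 TTNNGNAA match, and Plin4 held 1 CCAAT match 18 bases before it. Ucp1 and this Aqp7 window each held 1 AGGTCA match, 14 and 49 bases before the start, and Aqp7 also held 1 TTNNGNAA match. Over the full 300-base windows, which add the first 50 transcribed bases, CCAAT was found in 2 of the 8 members, AGGTCA in 2, TTNNGNAA in 4, and TATAAA and DR1 in 0. Only the exact TATAAA was searched, so close variants were not counted, such as tatata in the Ucp1 window and tataag in the Plin4 window. A member was counted if any of its starts matched, with 10 windows for the 8 members, while the shares that follow are per window. Of 32851 RefSeq windows of the same length, 37.4% held CCAAT, 16.3% AGGTCA, 40.7% TTNNGNAA, 13.6% TATAAA and 0.0396% DR1. These are matches of letters and not measured binding sites, and no match was shared by all members.

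The libraries held 25566173 to 34745497 counts, with the smallest total in artemisinin replicate 1, and 16566 to 17015 genes were detected in each. Lung epithelial genes were abundant in every library, with 2974 to 35144 normalised CPM of Sftpc, the surfactant protein C gene (CPM here are counts scaled to library depth with TMM factors). Artemisinin replicate 2 stood apart: 12 skeletal muscle markers summed to 7199 CPM there against 5.92 to 61.4 in the other libraries, and 12 keratinocyte markers to 1425 against 11.8 to 34.2. In artemisinin replicate 1, 8 cardiac muscle markers summed to 1307 CPM, against 335.5 and 341.0 in the other artemisinin libraries and 123.9 to 171.6 in the model. Several genes that define fat were scarce or found in few libraries. Lep, the leptin gene of white fat, reached at most 0.406 CPM. Of the brown fat regulators, Lhx8 had 0 counts in all but model replicate 2, at 0.0309 CPM, and Zic1 was found only in artemisinin replicate 2, at 2.11 CPM. Prdm16, Ppargc1a and Ebf2, also brown fat regulators, were found in every library, at 19.3 to 43.7, 5.56 to 9.39 and 0.0573 to 2.48 CPM. In bulk RNA, fewer cells of a type and less RNA per cell cannot be told apart.

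Most of the RNA of these genes lay in 1 mouse. Artemisinin replicate 1 had the highest level of 9 of the 10 genes, the exception being Plin4, and it held from 26% (Cidec) to 96.1% (Ucp1) of a gene's CPM summed over the 6 libraries. In 8 of the 10 genes that share was at least 50%. Among the 9 members tested this was so for 7, against 0.682% of all 15242 genes tested. Artemisinin replicate 1 was the highest library for 8 of those 9, against 29.6% of all genes tested. The summed CPM of the 10 genes was 713.6 in artemisinin replicate 1, 118.1 and 122.4 in artemisinin replicates 2 and 3, and 39.0, 69.9 and 52.4 in model replicates 1, 2 and 3. The largest parts of the sum in artemisinin replicate 1 were Fabp4 (303.1) and Cfd (252.6). In artemisinin replicate 2 they were Fabp4 (56.2) and Plin4 (29.6), while Adipoq (0.693) and Plin1 (0.819) lay within the model range there. Within the model group, replicate 2 was the highest for 8 of the 10 genes.

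**Figure D1:**
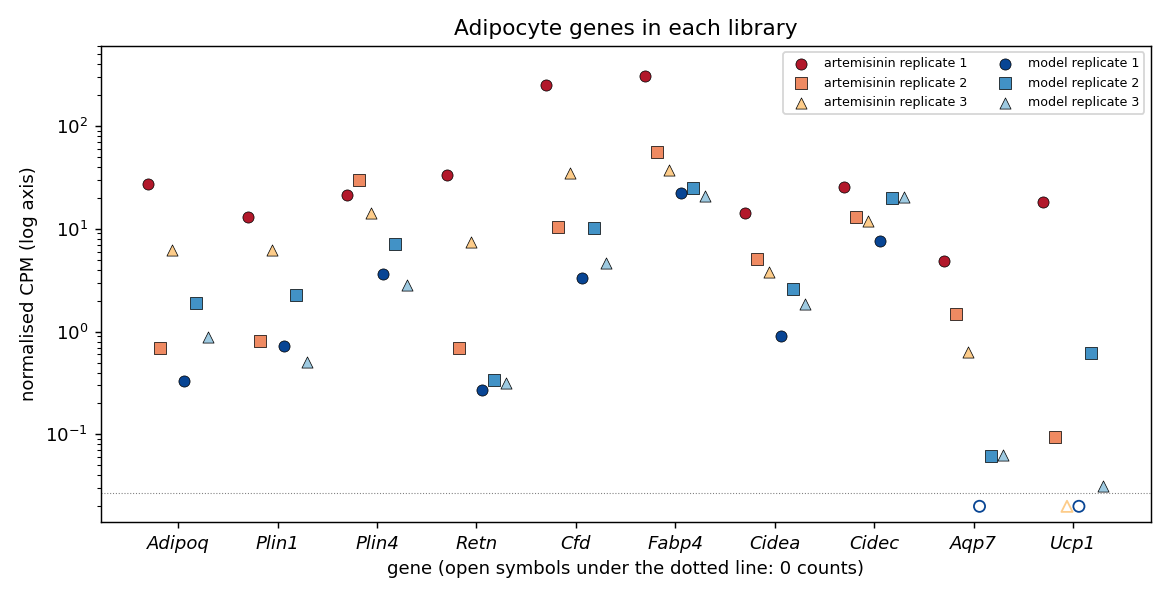
Normalised CPM (log axis) of the 10 adipocyte genes in each of the 6 libraries, with warm colours for artemisinin and blue for the model, and open symbols under the dotted line for 0 counts. Artemisinin replicate 1 is the top point of 9 genes, and Cidec is the gene whose 6 values lie closest together.

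Between the groups, Plin4 and Aqp7 rose with artemisinin by the quasi-likelihood test of edgeR, with p-values adjusted over all genes by the Benjamini-Hochberg method, and 0 members fell. Thus 2 of 9 members tested were called higher and 0 lower, against 2.17% and 2.3% of all genes tested (4.47% in either direction). All 9 had a fold change above 0, as did 53.2% of all genes. Another 6 had an unadjusted p under 0.05, making 8 of 9, where 24.7% of all genes had one. Of the 9 tested members 6 had groups that did not overlap, with artemisinin higher, against 16.3% of all genes. The median log2 fold change of the 9 was 2.55, and that of all genes 0.04. Expression was required to reach 0.303 CPM, here scaled by library totals without TMM factors, in 3 libraries for a gene to be tested. Retn and Aqp7 met this through the artemisinin libraries, with 1 and 0 model libraries at that level, so a difference was built into their passing and the counts above are a description. Ucp1 did not meet it. DESeq2 called 8 members higher, the 2 above with Adipoq, Plin1, Retn, Cfd, Fabp4 and Cidea. It called 1251 of all genes higher, where edgeR called 331. In counts simulated with known changes, 29.5% of the DESeq2 calls were false, against 9.43% of those of edgeR. The simulation used the spread estimated by edgeR, with 100 genes changed 2-fold and 100 changed 4-fold. Those settings differ from these data, so the shares need not hold for the member calls. Without artemisinin replicate 2 edgeR called 6, namely Plin4, Aqp7, Adipoq, Plin1, Retn and Cfd. Without artemisinin replicate 1, model replicate 1 or model replicate 3 it called 0, with 6, 6 and 4 members at an unadjusted p under 0.05, and without model replicate 2 it called 1, Plin4.

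**Figure D2:**
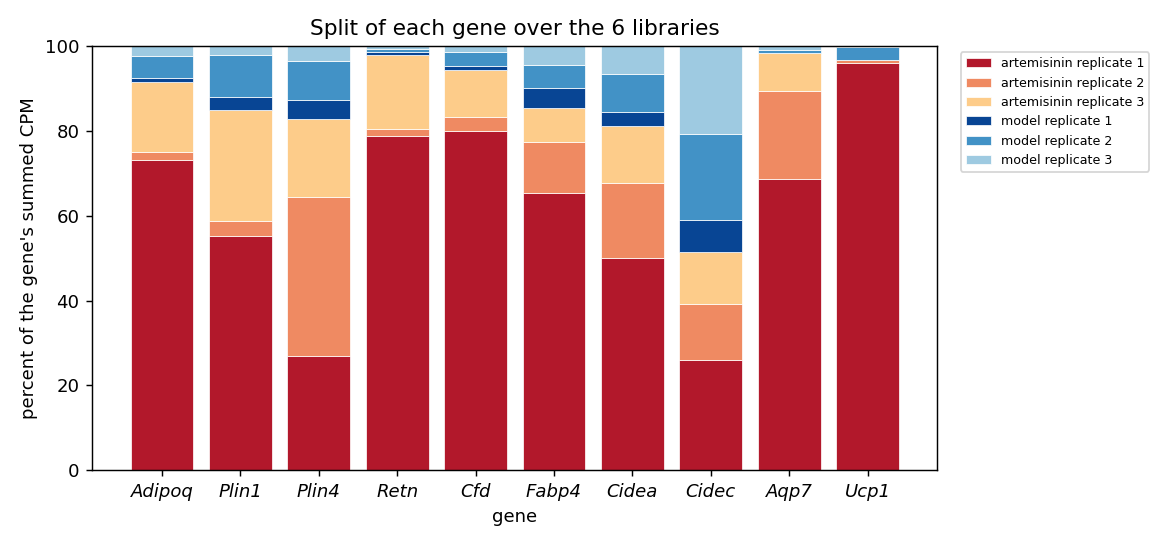
Split of each gene's summed normalised CPM over the 6 libraries, in percent, with 1 bar per gene and 1 colour per library. Artemisinin replicate 1 takes between 26% (Cidec) and 96.1% (Ucp1), and artemisinin replicate 2 takes its largest share, 37.6%, in Plin4.

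The adipokine genes differed widely between the artemisinin mice. Adipoq (chromosome 16, 23146536 to 23157968, GRCm38) encodes adiponectin, a secreted hormone that raises insulin sensitivity and is made almost wholly by fat cells. Its normalised CPM were 27.3, 0.693 and 6.24 in artemisinin replicates 1, 2 and 3 and 0.334, 1.91 and 0.882 in model replicates 1, 2 and 3. Artemisinin replicates 1 and 3 were above every model mouse, and replicate 2 lay inside the model range. The means were 11.4 ± 14.0 and 1.04 ± 0.803 (SD, n = 3 per group), and the log2 fold change, 3.44 ± 1.22 (SE; adjusted p = 0.148 in edgeR), was 1.73 when artemisinin replicate 1 was left out and 4.2 when model replicate 2 was.

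Retn (chromosome 8, 3655770 to 3659818) encodes resistin, which in mice is secreted by white adipocytes. It had 903, 22 and 257 counts with artemisinin, or 33.4, 0.693 and 7.36 CPM, against 9, 11 and 10 counts in the model, or 0.273, 0.340 and 0.315 CPM. All 3 artemisinin values were above all 3 model values, and the model mice lay close together (0.309 ± 0.0336, SD, n = 3) while the artemisinin mice did not (13.8 ± 17.3). The log2 fold change was 5.46 ± 1.30 (SE; edgeR adjusted p = 0.0607), and 3.69 when artemisinin replicate 1 was left out. Cfd (chromosome 10, 79890853 to 79892655) encodes adipsin, the complement factor D protease that activates the alternative pathway. It was at 252.6, 10.4 and 34.7 CPM with artemisinin and 3.34, 10.1 and 4.63 in the model. The groups were separated only narrowly, with artemisinin replicate 2 just above model replicate 2 (log2 fold change 4.04 ± 1.20, SE; edgeR adjusted p = 0.109; 1.90 without artemisinin replicate 1).

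Among the lipid droplet genes, Plin4 rose, and the general fat gene Plin1 followed Adipoq. Plin1 (chromosome 7, 79721164 to 79732904) encodes perilipin 1, the droplet coat protein of adipocytes that guards triglyceride from lipases. It was at 12.9, 0.819 and 6.15 CPM with artemisinin and 0.729, 2.29 and 0.504 in the model, so replicates 1 and 3 were above the model and replicate 2 was within it (log2 fold change 2.49 ± 0.99, SE; edgeR adjusted p = 0.180; 1.57 without artemisinin replicate 1 and 3.40 without model replicate 2). Plin4 (chromosome 17, 56100587 to 56109948) encodes perilipin 4, which coats small droplets in fat and is also made in skeletal muscle and heart. It rose from 3.61, 7.16 and 2.84 CPM in the model to 21.2, 29.6 and 14.3 with artemisinin. The groups did not overlap (21.7 ± 7.63 against 4.54 ± 2.31, SD, n = 3 per group; log2 fold change 2.25 ± 0.42, SE; edgeR adjusted p = 0.0335). This call was lost without artemisinin replicate 1 (edgeR adjusted p = 0.0777), model replicate 1 (0.163) or model replicate 3 (0.120), with log2 fold changes of 2.27, 2.11 and 2.0.

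Plin4 had its highest level in artemisinin replicate 2, the library rich in muscle markers. On the FPKM scale, which allows levels of different genes to be set side by side, Plin4 was 10.5 times Plin1 there and 0.479 to 1.64 times Plin1 in the other 5 libraries. Without that library the fold change of Plin4 was 1.96 on the log2 scale and it was still called (edgeR adjusted p = 0.0420). The part of muscle in the level of that library was not tested. The annotated end of Plin4 overlaps that of Hdgfl2 on the other strand, only at bases 56100591 to 56100607. The strand setting of the counting is not given in the sources used here.

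Cidec did not move with the other fat genes. Cidec (chromosome 6, 113424634 to 113435760) encodes FSP27, which fuses droplets into the single large droplet of white fat. Its values were 25.7, 13.1 and 11.9 CPM with artemisinin and 7.62, 20.0 and 20.5 in the model. Artemisinin replicates 2 and 3 lay below model replicates 2 and 3, and the means were close, 16.9 ± 7.63 and 16.0 ± 7.29 (SD, n = 3 per group; log2 fold change 0.08 ± 0.44, SE; edgeR adjusted p = 0.925). Its FPKM was 0.662 and 1.34 times that of Adipoq in artemisinin replicates 1 and 3, 13.3 times in artemisinin replicate 2 and 16.0, 7.35 and 16.3 times in model replicates 1, 2 and 3. Cidec was thus the second most abundant member per length in every model library, and the fifth in artemisinin replicate 1.

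Fabp4 and Aqp7 handle the fatty acids and glycerol of lipolysis. Fabp4 (chromosome 3, 10204342 to 10208616) encodes the fatty acid binding protein of adipocytes, which endothelial cells and macrophages also make, and it was the most abundant member per length in all 6 libraries. It was at 303.1, 56.2 and 37.2 CPM with artemisinin and 22.2, 24.7 and 20.9 in the model. The groups did not overlap, but replicates 2 and 3 were much nearer to the model than replicate 1 was (log2 fold change 2.55 ± 0.76, SE; edgeR adjusted p = 0.106; 1.05 without artemisinin replicate 1). Of 10 capillary endothelium markers 0 were called, 1 had a fold change above 0, and their summed CPM was 1580 to 4169 with artemisinin and 3041 to 4687 in the model. Of 10 macrophage markers 1 was called higher and 1 lower (2.17% and 2.3% of all genes tested), with sums of 1165 to 5354 and 2779 to 4481. Both lists had their lowest artemisinin sum in replicate 1, where Fabp4 was highest, and the part of those cells in the Fabp4 level was not tested.

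Aqp7 (chromosome 4, 41033074 to 41048237) encodes the aquaglyceroporin through which fat cells release glycerol. It had 133, 47 and 22 counts with artemisinin, or 4.91, 1.48 and 0.630 CPM, against 0, 2 and 2 counts in the model. Every artemisinin mouse was above every model mouse. Relative to depth, the artemisinin libraries held 52.3 times as many (exact binomial 95% interval 20.1 to 193.8, for counting error alone). The log2 fold change was 5.69 ± 1.15 (SE; edgeR adjusted p = 0.0403). Aqp7 was tested only because the artemisinin libraries passed the filter, with 0 model libraries at its cutoff, so a difference was built in. Leaving out artemisinin replicate 1 gave 25.1 times (9.38 to 94.8) and no call (edgeR adjusted p = 0.0783). It was also not called without model replicate 1, 2 or 3 (edgeR adjusted p = 0.161, 0.122 and 0.149). The multiples in these 3 cases were 34.5 (13.3 to 128.0), 69.7 (19.0 to 579.3) and 70.4 (19.2 to 585.1), the latter 2 with 2 model counts left.

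**Figure D3:**
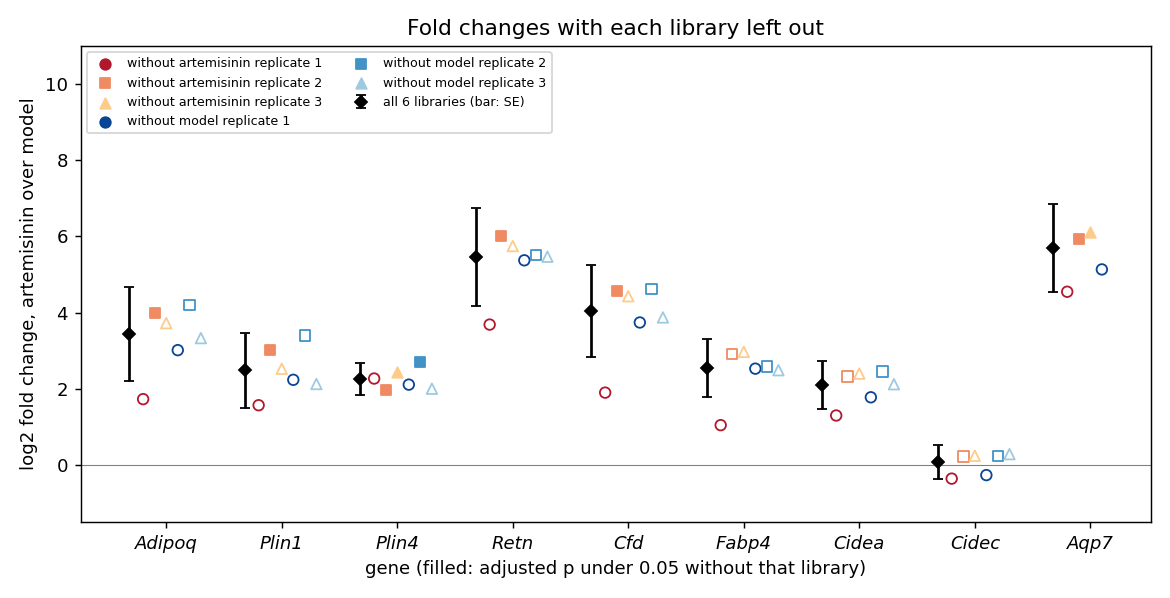
Log2 fold changes of the 9 tested genes with all 6 libraries (black, bar for the SE) and with each library left out in turn, filled where the adjusted p stayed under 0.05. Leaving out artemisinin replicate 1 lowers 8 of the 9 values, to 1.73 for Adipoq and 1.90 for Cfd, but not that of Plin4, and Aqp7 is not drawn for the 2 cases with 2 model counts left.

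Ucp1, the defining gene of brown fat, had more than 3 counts in 2 mice only. Ucp1 (chromosome 8, 83290348 to 83298456) had 493, 3 and 0 counts in artemisinin replicates 1, 2 and 3 and 0, 20 and 1 in model replicates 1, 2 and 3, or 18.2, 0.0945 and 0 CPM and 0, 0.618 and 0.0315 CPM. Artemisinin replicate 1 held nearly all of it, and after it came a model mouse. The count of 0 allows up to 0.0906 CPM in artemisinin replicate 3 and 0.0863 in model replicate 1. Relative to depth, the artemisinin group held 24.5 times as many counts (exact binomial 95% interval 15.8 to 39.9, counting error only), and without artemisinin replicate 1 it held 0.208 times as many (0.0397 to 0.696), which turns its direction. Without model replicate 2, which leaves 1 model count, it held 342.2 times as many (61.1 to 13542), and without any 1 of the other 4 libraries 16.2 to 39.0 times as many. With no filter on low counts edgeR gave a log2 fold change of 4.77 ± 2.79 (SE; adjusted p = 0.370), so no difference between the groups was shown.

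Cidea (chromosome 18, 67343564 to 67367794), which encodes a droplet protein that enlarges the droplets of brown fat, was found in every mouse. It was at 14.3, 5.04 and 3.84 CPM with artemisinin and 0.911, 2.62 and 1.86 in the model. The groups did not overlap, and artemisinin replicate 1 held 50.1% of the sum (log2 fold change 2.10 ± 0.63, SE; edgeR adjusted p = 0.104; 1.30 without artemisinin replicate 1). Its start overlaps the noncoding gene B430212C06Rik on the other strand. The brown fat genes therefore differed from each other, as Cidea had 134 counts in artemisinin replicate 3, where Ucp1 had 0.

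Per length, brown and general fat genes stood in a different proportion in each library. Ucp1 FPKM was 50.1% of Adipoq FPKM in artemisinin replicate 1 (exact binomial 95% interval 44.6 to 56.2, counting error only). It was 10.2% (1.96 to 34) in artemisinin replicate 2, from 3 counts, and 0% (0 to 1.28) in artemisinin replicate 3. In artemisinin replicate 3, with 218 counts of Adipoq, the interval lay wholly below that of replicate 1, so fat RNA in those 2 mice differed in its share of Ucp1 beyond counting error. In the model Ucp1 was 0% of Adipoq (0 to 29.9) in replicate 1, 24.2% (13.8 to 40.6) in replicate 2 and 2.68% (0.0655 to 16.2) in replicate 3. Model replicate 2 was thus the model mouse with the most Adipoq, at 62 counts, and also with the most Ucp1.

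Cidea gave another order. It was 55.6% of Adipoq FPKM (49.1 to 63.0) in artemisinin replicate 1 and 65.1% (52.1 to 81.0) in artemisinin replicate 3, but 769.8% (491.2 to 1263) in artemisinin replicate 2. In the model it was 288.7% (140.6 to 638.4), 145.1% (103.4 to 204.7) and 223.0% (140.0 to 363.3) in replicates 1, 2 and 3. Cidea was thus below Adipoq in the 2 mice with the most Adipoq and above it in the other 4. Against Cidec, its relative in the CIDE family, Cidea FPKM was 0.841, 0.579 and 0.484 with artemisinin and 0.180, 0.197 and 0.137 in the model, with no overlap of the groups. These proportions are a description, with no test, since the genes were chosen with results of these data known.

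**Figure D4:**
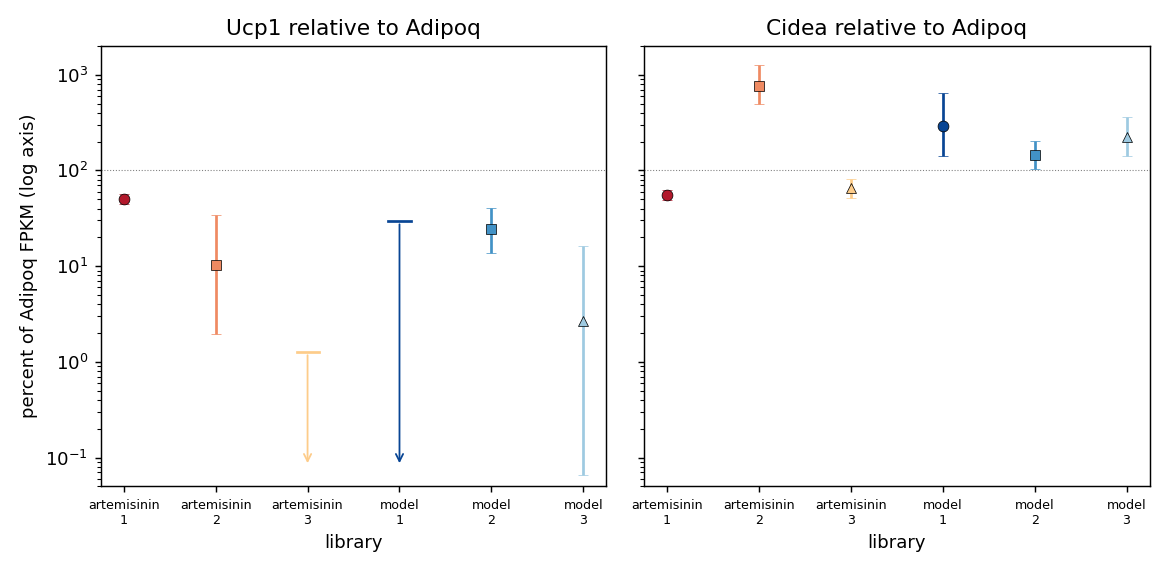
FPKM of Ucp1 (left) and Cidea (right) as a percent of Adipoq FPKM in each library, on a log axis, with exact binomial 95% intervals for counting error and arrows from the upper bound where there were 0 counts. Ucp1 is at 50.1% in artemisinin replicate 1 and 0% in artemisinin replicate 3, and Cidea is above the dotted line of 100% in artemisinin replicate 2 and the 3 model libraries.

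The genes whose split over the 6 libraries was most like that of Adipoq were partly fat genes and partly heart and platelet genes. Likeness was taken as the overlap of 2 splits, the sum over the libraries of the smaller of the 2 percents, among 14110 genes averaging 1 CPM or more, where the median gene overlapped Adipoq by 41.7%. The nearest was Pck1, the phosphoenolpyruvate carboxykinase gene of glyceroneogenesis in fat and of gluconeogenesis in liver, at 94.1%. Mybpc3 and Tnni3, which encode the cardiac myosin binding protein C and cardiac troponin I, overlapped by 94.0% and 92.5%. Retn followed Adipoq at 93.6% and Gp9, a platelet glycoprotein gene, at 92.1%. Of the other members, Cfd overlapped Adipoq by 91.5%, Fabp4 by 83.6%, Plin1 by 81.9%, Aqp7 by 81.1%, Ucp1 by 77.0% and Cidea by 73.8%, while Plin4 at 53.9% and Cidec at 48.3% stood nearer to the median gene.

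For Ucp1 the nearest gene was Nppa, which encodes the atrial natriuretic peptide of heart muscle, with an overlap of 97.8%. Nppa was at 164.2 CPM in artemisinin replicate 1, 2.13 in model replicate 2 and at most 1.23 in the others. Next came Glycam1, a lymph node vessel mucin gene, at 96.2%, Bpifa1, a secreted protein gene of the upper airway, at 88.1%, Cfd at 83.9%, and Nppb, the brain natriuretic peptide gene, at 81.3%. For Ucp1 the median gene overlapped by 20.0%. The overlaps rest on 6 libraries, and a high value mainly says that a gene was concentrated in artemisinin replicate 1. The part of heart tissue or other neighbouring tissue in the fat gene levels was not tested.

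Paralogs of the members are made in various cell types, and Plin5 and Fabp3 also belong to the list of further brown fat genes. Of 16 paralogs 14 were tested, with 1 called higher and 1 lower. The shares of all genes tested were 2.17% and 2.3%. Fabp7, a fatty acid binding protein gene best known from glia, rose from 0.213, 0.154 and 0.0630 CPM in the model to 3.25, 4.76 and 2.09 with artemisinin (log2 fold change 4.51 ± 0.64, SE; edgeR adjusted p = 0.0182). All 3 model values of Fabp7 were under the 0.303 CPM needed for testing, so it passed only through the artemisinin libraries and a difference was built into its passing. Cideb, the CIDE gene of liver and other epithelia, fell from 17.0, 9.36 and 13.5 CPM to 2.62, 4.79 and 2.43 (log2 fold change −2.02 ± 0.37, SE; edgeR adjusted p = 0.0317). The 3 CIDE genes thus had 3 patterns, as Cideb was lower in every artemisinin mouse, Cidea higher in every one, and Cidec overlapped. Plin2, the perilipin gene of most cell types, was at 160.1 to 290.9 CPM with artemisinin and 204.8 to 249.7 in the model (edgeR adjusted p = 0.972). Ucp2, made widely and highly in immune cells, was at 439.9 to 598.1 and 577.4 to 579.5 CPM (edgeR adjusted p = 0.744), and Ucp3, the muscle form, at 7.61 to 13.8 and 8.62 to 10.7 (0.512). The resistin-like gene Retnlg, a neutrophil gene, was highest in artemisinin replicate 3 at 143.9 CPM, where Retn was at 7.36. Its relative Retnla, a gene of airway and alternatively activated immune cells, was at 36.3 to 256.3 CPM with artemisinin and 39.3 to 145.4 in the model (edgeR adjusted p = 0.511), and Retnlb had counts in model replicate 1 only, at 0.273 CPM.

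Further droplet and glycerol genes among the paralogs had separated groups and were not called. Plin3, a widely made perilipin gene, was at 44.7 to 68.1 CPM with artemisinin and 76.9 to 86.1 in the model (edgeR adjusted p = 0.114). Plin5, the perilipin gene of oxidative tissues such as heart, was at 3.75 to 6.72 and 3.06 to 3.15 CPM (edgeR adjusted p = 0.203). Aqp9, a glycerol channel gene of liver and leukocytes, was at 5.17 to 9.79 and 1.64 to 2.96 CPM (edgeR adjusted p = 0.0732). In the 2 paralogs also made by epidermis, Fabp5 and Aqp3, the highest value of the 6 libraries, 407.7 and 17.9 CPM, was in artemisinin replicate 2, the library rich in keratinocyte markers (edgeR adjusted p = 0.860 and 0.226), and the part of those cells was not tested. Fabp1, the liver form, was at 6.47 to 16.0 and 9.51 to 11.2 CPM (edgeR adjusted p = 0.915), Fabp2, the intestinal form, was at most at 0.121 CPM and was not tested, and Fabp3 is given with the brown fat genes below.

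Other genes of the adipocyte were less uniform than the members. Of 40 further adipocyte genes 39 were tested, 4 rose, 2 fell and 33 were not called, with a median log2 fold change of 0.18 against 0.04 for all genes. Among all genes tested 2.17% rose and 2.3% fell. The 4 that rose were G0s2, an inhibitor of the triglyceride lipase, Dgat2, which makes triglyceride, Slc2a4, the insulin-regulated glucose transporter of fat and muscle, and Car3, a carbonic anhydrase of fat and muscle. Dgat2 rose from 9.59, 11.9 and 10.2 CPM to 55.8, 33.6 and 25.9 (log2 fold change 1.86 ± 0.29, SE; edgeR adjusted p = 0.0242). Car3 rose from 3.55, 20.8 and 7.88 CPM to 280.8, 155.2 and 57.5 (log2 fold change 3.94 ± 0.80, SE; edgeR adjusted p = 0.0418). Slc2a4 rose with a log2 fold change of 3.88 and was highest in the muscle-rich artemisinin replicate 2, at 43.7 CPM, and G0s2 rose with a log2 fold change of 1.19.

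The 2 that fell were Cebpa, an adipogenic transcription factor that alveolar type 2 cells also use, and Acly, which supplies acetyl-CoA for lipid synthesis. Cebpa fell from 590.8, 405.0 and 469.5 CPM to 160.6, 183.2 and 157.8 (log2 fold change −1.55 ± 0.19, SE; edgeR adjusted p = 0.0135), and Acly by 1.01 on the log2 scale (edgeR adjusted p = 0.0295). Of 10 alveolar type 2 markers all 10 were below 0 and 6 fell, against 2.3% of all genes tested. Their summed CPM was 6744 to 20743 with artemisinin and 49255 to 73092 in the model. The part of that cell type in the levels of Cebpa, Acly and Cideb was not tested. Pparg, the master regulator of fat cell formation, was at 23.1 to 30.2 CPM with artemisinin and 25.5 to 30.5 in the model (log2 fold change −0.06 ± 0.16, SE; edgeR adjusted p = 0.837). Adipoq ran from 0.334 to 27.3 CPM over the same libraries. The part of cells other than fat cells in the Pparg level was not tested. Pck1, Thrsp and Adig, further fat genes, had log2 fold changes of 3.33, 2.91 and 2.53, with artemisinin replicate 1 the highest of the 6 libraries for each, and were not called (edgeR adjusted p = 0.188, 0.120 and 0.234). Fasn, Cd36 and Me1 went the other way, at −1.32, −1.08 and −1.03, with separated groups and no call (edgeR adjusted p = 0.102, 0.149 and 0.173). Among the 39 tested, 23 were above 0, and groups were separated with artemisinin higher in 9 and lower in 8. The shares of all genes tested were 53.2%, 16.3% and 17.3%.

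**Figure D5:**
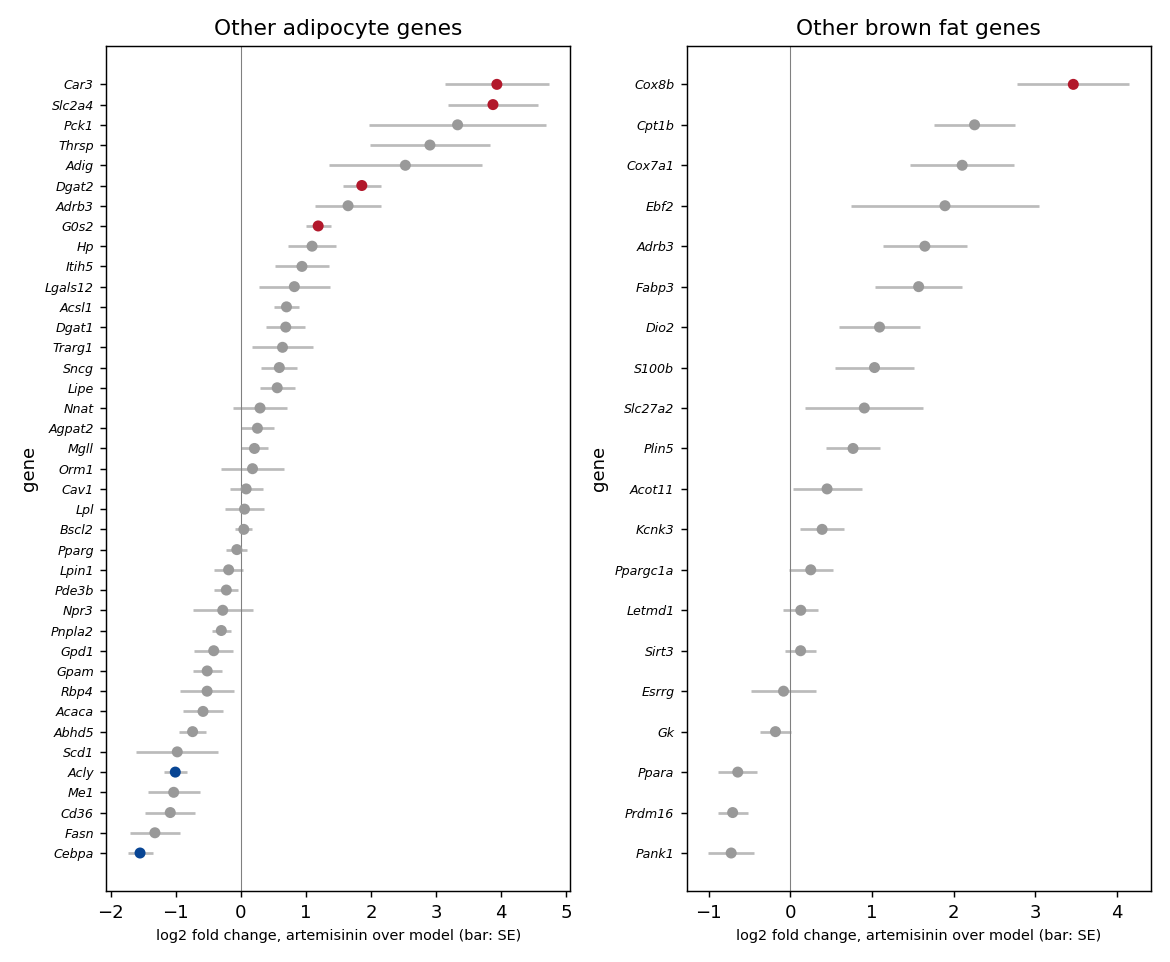
Log2 fold change of artemisinin over model, with SE bars, for the 39 tested further adipocyte genes (left) and the 20 tested further brown fat genes (right), in red where called higher, blue where called lower and grey where not called. The adipocyte genes run from −1.55 for Cebpa to 3.94 for Car3, and Cox8b, at 3.47, is the brown fat gene called.

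Of 25 further brown fat genes 20 were tested, 1 rose, 0 fell and 19 were not called, with a median log2 fold change of 0.61. Among all genes tested 2.17% rose and 2.3% fell. The 1 that rose was Cox8b, a cytochrome c oxidase subunit gene of brown fat and striated muscle, at 10.4, 9.67 and 2.66 CPM with artemisinin and 0.304, 1.08 and 0.662 in the model (log2 fold change 3.47 ± 0.69, SE; edgeR adjusted p = 0.0384). Cox7a1, Cpt1b and Fabp3, also shared with muscle, had log2 fold changes of 2.11, 2.26 and 1.57 and were not called (edgeR adjusted p = 0.107, 0.0508 and 0.135). Beside them, 2 of 8 cardiac muscle markers were called higher, against that 2.17%, and all 8 were above 0, against 53.2% of all genes tested. Of 5 tested skeletal muscle markers 0 were called, and the sums of both lists are given above. The part of muscle in these levels was not tested. Genes with a narrower tie to brown fat were scarce: Elovl3 was at 0.517, 0 and 0.372 CPM with artemisinin and 0 in the model, and Otop1 at 1.37, 0.0315 and 0.401 against at most 0.124. Prdm16, a brown fat determination gene also expressed elsewhere in the lung, was lower in every artemisinin mouse, at 19.3 to 27.0 against 32.8 to 43.7 CPM, and was not called (edgeR adjusted p = 0.0761). With any 1 artemisinin replicate left out, Cebpa, Dgat2 and Fabp7 stayed called. Without artemisinin replicate 1 the calls of G0s2, Slc2a4, Car3, Cox8b, Acly and Cideb were lost, and without artemisinin replicate 3 those of G0s2, Acly and Cideb. Without model replicate 1 or 3 none of these 9 genes was called, and without model replicate 2 only Cebpa was (edgeR adjusted p = 0.0388). The fold change of Car3 was 3.31 on the log2 scale without artemisinin replicate 1 and 4.81 without model replicate 2.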

How the data were processed

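RNA-seq libraries of 3 artemisinin-treated and 3 model mice were compared. Per the labels' protocols, total RNA went into a stranded mRNA library kit, and per the submitters' processing notes the build was GRCm38 (mm10); for the aligner, annotation and strand setting the sources used here give nothing. The authors deposited raw read counts per gene and a table of FPKM, which were the counts divided by the library total and a value per gene (largest relative gap 9.7e-07 over 17363 genes), so FPKM is no separate evidence. The test on counts was that of edgeR 4.0.16 (R 4.3.3), after filterByExpr (15242 of 18238 genes; TMM factors 0.948 to 1.06; glmQLFit with robust estimation; glmQLFTest; Benjamini-Hochberg adjustment over all genes tested; threshold 0.05). The SE of a fold change is its size divided by the root of F. In 3 against 3 an exact two-sided permutation p cannot go below 0.1, so p-values rest on the spread shared across genes. Levels of different genes were compared by FPKM only. Intervals and floors (3 counts) cover counting error only. Alternatives were DESeq2 1.42.0, limma 3.58.1 on log2(FPKM + 0.1) or log2(FPKM + 1), scaling, filters, a replicate block and each library left out.

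The 10 members were named whatever their result, as were their paralogs, called genes of the fixed lists and the 5 genes nearest to Adipoq and to Ucp1. Further list genes were named after their values were seen. The members and lists were chosen with earlier results of these data known. By symbol, 1 list entry matched no gene (Ptcra, of thymus and lymph node, where 9 of 10 matched). Lists of neutrophils, fibroblasts, mesothelium, and thymus and lymph node had 6, 0, 0 and 0 genes called higher and 0 lower. Among all genes tested 2.17% were called higher and 2.3% lower. The lists of skeletal muscle and keratinocytes had 5 tested genes each and 0 called.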

Additional observations from a re-analysis of the deposited data

How the results depend on the processing

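Genes called numbered 331 higher and 351 lower, and the calls moved with tool and library more than with scaling. DESeq2 called 1251 genes higher and 1035 lower, 8 members higher, and 14 higher and 8 lower among 87 list genes related to fat, where edgeR called 6 and 3 of the 79 that passed its filter. Scaling by library totals gave 464 and 319, and the median gene then stood at 0.15 on the log2 scale in place of 0.04. The tested members stayed above 0 in each scaling. With a filter of 1 CPM in 3 libraries, which leaves out Aqp7, Retn and Ucp1, or with limma at a mean FPKM of at least 0.5, which leaves out Aqp7, 1 member was called higher. Limma without a filter called 207 genes lower, 3 list genes higher and 0 members, of which 6 had an unadjusted p under 0.05. With the replicate number as a block edgeR called 65 genes higher and 63 lower, 1 member, and 2 list genes higher and 0 lower (15 and 13 at an unadjusted p under 0.05), and Aqp7 lost its call (edgeR adjusted p = 0.105). Libraries of the same number showed no shared deviation. Their deviations from the group means correlated at 0.00249, −0.138 and 0.0419, and 0 of 6 libraries correlated best with their own number. With 3 libraries a group, these values cannot exclude a pairing. With 1 library left out, edgeR called 6 to 670 genes higher, 11 to 713 lower, 0 to 6 members higher, and 0 to 9 list genes higher and 0 to 7 lower. The log2 fold change of Cidec then ran from −0.36 to 0.29, turning negative without artemisinin replicate 1 (−0.36) or model replicate 1 (−0.26), for which the cause was not tested, and was called in no setting. The group medians of Ucp1 and Cidea as a percent of Adipoq FPKM are unstable. That of Ucp1 was 10.2% with artemisinin and 2.68% in the model, but against the median of the 8 general fat genes 2.27% and 3.34%, which turns the order of the groups. That of Cidea was 65.1% and 223.0%, and with Plin1 as denominator 183.0% and 205.8%. With 1 library left out these medians ran from 5.11% to 30.1% and 1.34% to 13.4% for Ucp1, and from 60.4% to 417.4% and 184.1% to 255.8% for Cidea, so the order turned for both genes. Depth limits Ucp1, Aqp7 and Retn, which had at most 20 counts in a model library.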

Other observations

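Receptors and partners of the adipokines were measured beside their ligands, and of 9 such genes 0 were called by edgeR, while 1, the complement receptor gene C5ar1, had an unadjusted p under 0.05 (log2 fold change 0.58; edgeR adjusted p = 0.200). Among all genes tested 4.47% were called by edgeR and 24.7% had an unadjusted p under 0.05. The adiponectin receptor genes Adipor1 and Adipor2 were at 192.8 to 233.8 and 151.3 to 253.1 CPM with artemisinin and 233.0 to 256.9 and 264.9 to 294.7 in the model, so the Adipor2 ranges did not overlap (log2 fold change −0.46 ± 0.21, SE; edgeR adjusted p = 0.221). Cdh13, which encodes T-cadherin, a surface protein that binds adiponectin, was at 44.3, 74.6 and 19.6 CPM with artemisinin and 15.7, 34.7 and 28.7 in the model, and the leptin receptor gene Lepr at 82.1 to 123.1 and 56.8 to 131.1. In the alternative pathway of complement, Cfb, whose product is the substrate of adipsin, was at 65.2, 76.9 and 106.4 CPM with artemisinin and 88.5, 61.9 and 68.9 in the model (edgeR adjusted p = 0.630). C3 was at 562.2, 747.2 and 585.8 against 499.6, 491.6 and 463.6 CPM, with separated groups and no call (edgeR adjusted p = 0.238). Neither had its highest value in artemisinin replicate 1, where Cfd did.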
